A study of Mus musculus with 6 samples.

Results

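The genes described here make, sense, move and take up cholesterol and fatty acids. They are 38 genes chosen by symbol: 18 for enzymes of sterol synthesis, 5 that control the SREBP transcription factors, 3 for sterol efflux and transfer, 9 for fatty acid synthesis and desaturation, and 3 for lipoprotein receptors. Of these, 37 had a probe set that names that gene alone (Acat2 had none), out of 18193 genes with such a probe set on the array. Their 90 probe sets were compared between 3 arrays from Ts1Cje mice and 3 from disomic mice. A gene was represented by its brightest probe set and counted as expressed where A, the mean log2 intensity over the 6 arrays, was above 5. This held for 36 of the 37 genes and for 8947 genes in all. The exception was Abcg1, a cholesterol exporter, whose A of 2.40 was close to the lowest value of the table, 2.23.

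All 6 arrays came from female mice aged 84 days on the C57BL/6 background. Neural stem cells and progenitors from the walls of the lateral ventricles were grown for 7 days as neurospheres, floating colonies that hold stem cells and their dividing progeny. The Ts1Cje mouse carries a further copy of distal chromosome 16, joined to distal chromosome 12, and models part of Down syndrome. It arose while Sod1, at the start of the segment, was being targeted, and the Sod1 copy of the segment is not functional. The disomic mice were littermates without the segment, and the cultures are described as 3 such pairs. Of the 38 genes, 0 lie on chromosome 16, so none has the third copy. Lss and Abcg1 have human orthologues that lie on the chromosome that is trisomic in Down syndrome, but in the mouse they lie outside the Ts1Cje segment.

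Cells build cholesterol from acetyl-CoA through mevalonate and squalene, and then reshape the sterol ring in a series of reductions, demethylations and isomerisations. When membrane sterol is low, Scap carries the SREBP factors from the endoplasmic reticulum to the Golgi, where they are cleaved and from where they enter the nucleus to switch on most genes of the pathway. When sterol is plentiful, Insig proteins hold Scap back. Dividing cells need new membrane, neural cells make most of their own cholesterol, and the lipoprotein receptors Vldlr and Lrp8 also bind reelin, a guide for migrating neurons.

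The array checks and markers that bear on the results below were as follows. The actin control probe sets gave a 3′ minus 5′ difference in log2 intensity of 1.53 to 1.83 on the disomic arrays. On the Ts1Cje arrays it was 1.87 to 2.26, highest on Ts1Cje 3. For Gapdh it was 2.09 to 2.28 against 2.29 to 2.44. The 18S control had a mean log2 intensity of 10.24 to 11.74 against 11.97 to 12.36. These controls separated the genotypes, for Gapdh narrowly, and their part in the differences between genotypes was not tested. Of the marker lists, 10 of 13 genes of neural stem cells and astrocytes were expressed, against 0 of 8 for microglia, 0 of 5 for ependymal cells, 1 of 8 for vascular cells (Acta2) and 3 of 9 for neuroblasts and neurons. Of 10 oligodendrocyte lineage genes 6 were expressed. M is the Ts1Cje mean minus the disomic mean in log2 intensity. All 6 M values were below 0, with a median of -0.21, where 53.9% of all expressed genes were above 0. At an unadjusted limma p under 0.05, 0 of the 6 were lower (2.87% of all expressed genes). For 0 of them was every Ts1Cje array below every disomic array (5.16%). Without Ts1Cje 3 the median was -0.09. Of 6 listed genes of transit-amplifying progenitors 3 were expressed, all with M below 0 and with a median of -0.41. Of these 3, 0 were lower at an unadjusted limma p under 0.05 (2.87% of all expressed genes). For 0 of the 3 was every Ts1Cje array below every disomic array (5.16%). This list shares Mki67 and Top2a with the proliferation genes described below. The arrays hold bulk RNA, in which fewer cells of a type and less RNA per cell cannot be told apart.

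Between the genotypes the lipid genes differed little. M had a median of -0.004 over the 36 expressed genes, with 18 above 0 and 18 below, and of 0.02 over all expressed genes. Counted by a limma moderated t past 4, 0 of the 36 genes were higher in Ts1Cje and 0 lower, where 1.13% and 0.693% of all expressed genes were. At an unadjusted p under 0.05 the count was also 0 in each direction, against 3.73% and 2.87%. The smallest limma adjusted p among the 36 was 1, and none passed 0.05, against 0.0112% of all expressed genes (1 gene). For 0 genes did every Ts1Cje array exceed every disomic array (6.12% of expressed genes), and 1 gene, Lrp8, had every Ts1Cje array below every disomic array (5.16%).

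These counts do not show that the genes act alike in both genotypes. The 95% interval of M held 0 for all 36 genes, and it lay within -1 to 1 for 24 of them. For 10 genes it lay within -0.58 to 0.58, the size of a change by the ratio of copy numbers in trisomy. The median standard error of M was 0.20.

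**Figure D1:**
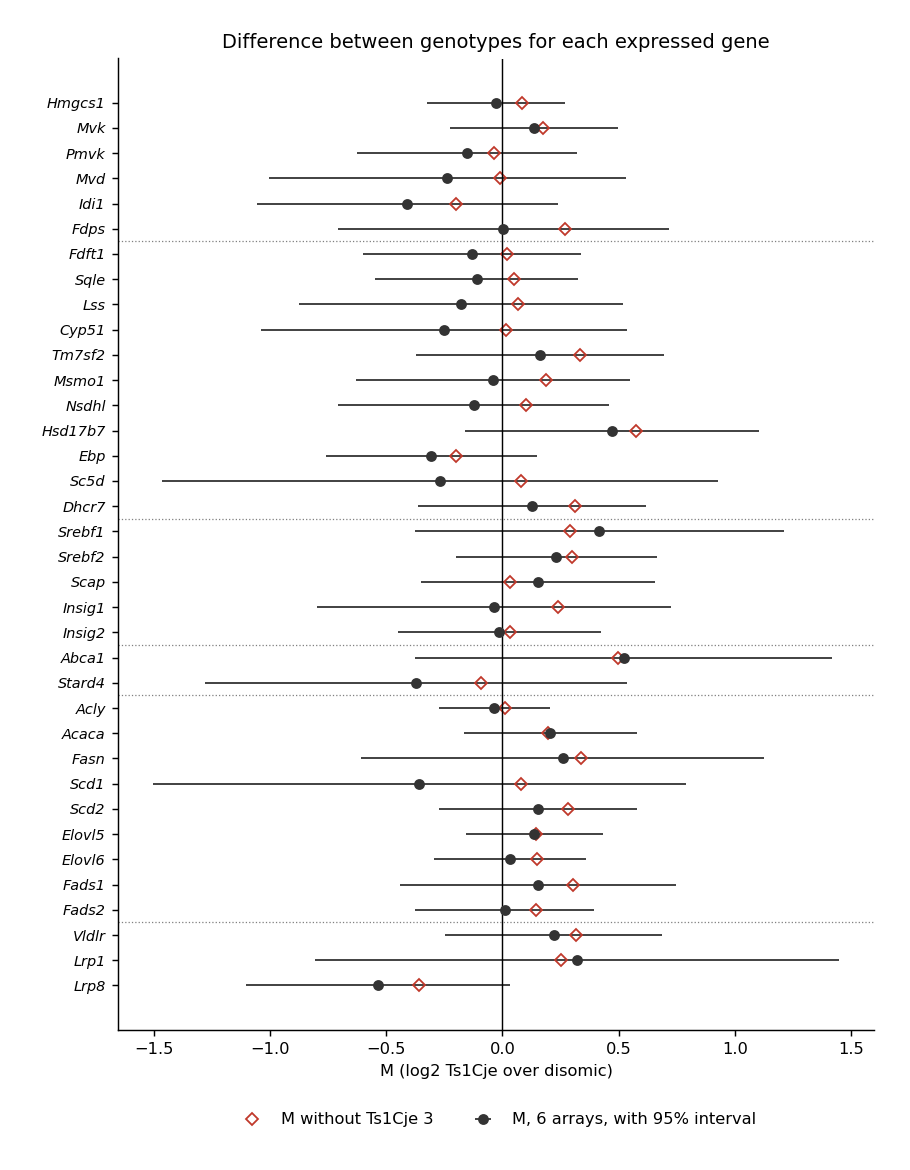
The difference between genotypes (M, log2) is plotted for each of the 36 expressed genes by role, with its 95% interval from limma. Every interval crosses 0, and the genes lie on both sides of it.

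The arm of sterol synthesis up to farnesyl diphosphate had a median M of -0.09 over 6 expressed genes, 2 of them above 0. Idi1, the isomerase that supplies the allylic isoprene unit, gave 12.51, 12.61 and 12.19 on the disomic arrays and 12.31, 12.16 and 11.61 on the Ts1Cje arrays. Its M was -0.41 ± 0.24 (SE, n = 3 per genotype). The groups overlapped, and the array lowest of all was Ts1Cje 3. Mvk, mevalonate kinase, gave 6.57, 6.12 and 6.42 against 6.51, 6.59 and 6.43, with the lowest value on disomic 2 and an M of 0.14 ± 0.13. Its second probe set had an M of -0.19. Hmgcs1, which makes the HMG-CoA from which mevalonate is formed, had an M of -0.03, and 5 expressed probe sets ranging from -0.26 to 0.40. Pmvk and Mvd, the kinase and the decarboxylase that follow Mvk, had M values of -0.15 and -0.24, and Fdps, farnesyl diphosphate synthase, 0.00.

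The steps from squalene to cholesterol had a median M of -0.12 over 11 genes, 3 of them above 0. Hsd17b7, a ketoreductase of sterol demethylation, had the largest M of the arm, 0.47 ± 0.23. It gave 10.15, 9.62 and 9.86 on the disomic arrays and 10.18, 10.73 and 10.14 on the Ts1Cje arrays, so that Ts1Cje 3 lay just inside the disomic range. All 3 of its expressed probe sets were above 0, at 0.47, 0.58 and 0.46. With their mean taken as the value of the gene the genotypes no longer overlapped, Ts1Cje being higher. By the brightest probe set, 6.12% of all expressed genes were separated in this direction, and no share was taken for averaged probe sets. Ebp, the isomerase of the sterol ring, had the lowest, -0.31 ± 0.17, with 9.01, 8.82 and 8.57 against 8.51, 8.69 and 8.28. The groups of Ebp overlapped through disomic 3.

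The other genes of the ring steps lay between these. Fdft1 (squalene synthase), Sqle (squalene epoxidase) and Cyp51 (lanosterol demethylase) had M values of -0.13, -0.11 and -0.25. Lss, which closes squalene epoxide into lanosterol, had -0.18 on the brightest probe set and 0.31 on the other, and Sc5d, a sterol desaturase, -0.27 and 0.31. Of the 21 lipid genes with several expressed probe sets, 10 had probe sets that differed in sign, so that for these genes M depends on which probe set is read. The brightest sets of Hmgcs1, Mvd, Fdft1, Lss, Hsd17b7, Acly, Elovl5 and Vldlr are of kinds (_x_at, _s_at) whose probes may also bind related transcripts.

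The clearest pattern among the sterol genes was not between the genotypes but on a single array. Ts1Cje 3 was the lowest of the 6 arrays for 15 of the 17 expressed sterol synthesis genes, where it was the lowest for 17.6% of all expressed genes. Mvk and Hsd17b7 were the exceptions, both lowest on disomic 2. At the level of probe sets it was the lowest for 23 of 30, against 19.7% of all expressed probe sets. The value on Ts1Cje 3 minus the mean of the other 5 arrays had a median of -0.45 over the 17 genes and was -0.999 at the lowest (Sc5d), with 16 of the 17 below 0. Over all expressed genes the median was 0.01. This pattern was noticed in the values and is a description, with no test.

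Examples from each stage show the same array. Cyp51 gave 10.43, 10.84 and 10.38 on the disomic arrays, 10.52 and 10.60 on Ts1Cje 1 and 2, and 9.77 on Ts1Cje 3. Nsdhl, a dehydrogenase of sterol demethylation, gave 10.35, 10.34 and 10.36, then 10.45, 10.45 and 9.77. Dhcr7, which performs the last reduction to cholesterol, gave 10.28, 10.21 and 10.12, then 10.52, 10.52 and 9.96. In each of these, Ts1Cje 1 and 2 lay within or above the disomic range while Ts1Cje 3 lay below it. Outside sterol synthesis, 7 of 19 lipid genes were lowest on Ts1Cje 3, among them 4 of 9 for fatty acid synthesis and 1 of 5 for SREBP control. The mean deviation on Ts1Cje 3 was 0.01 over the 55 other pathway genes described last, against -0.41 over the 17 sterol genes. Those 55 include 5 other sterol synthesis genes, whose mean deviation on Ts1Cje 3 was -0.0005. As a list these did not share the low values. That list named 10 genes, of which 5 had a probe set of their own.

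**Figure D2:**
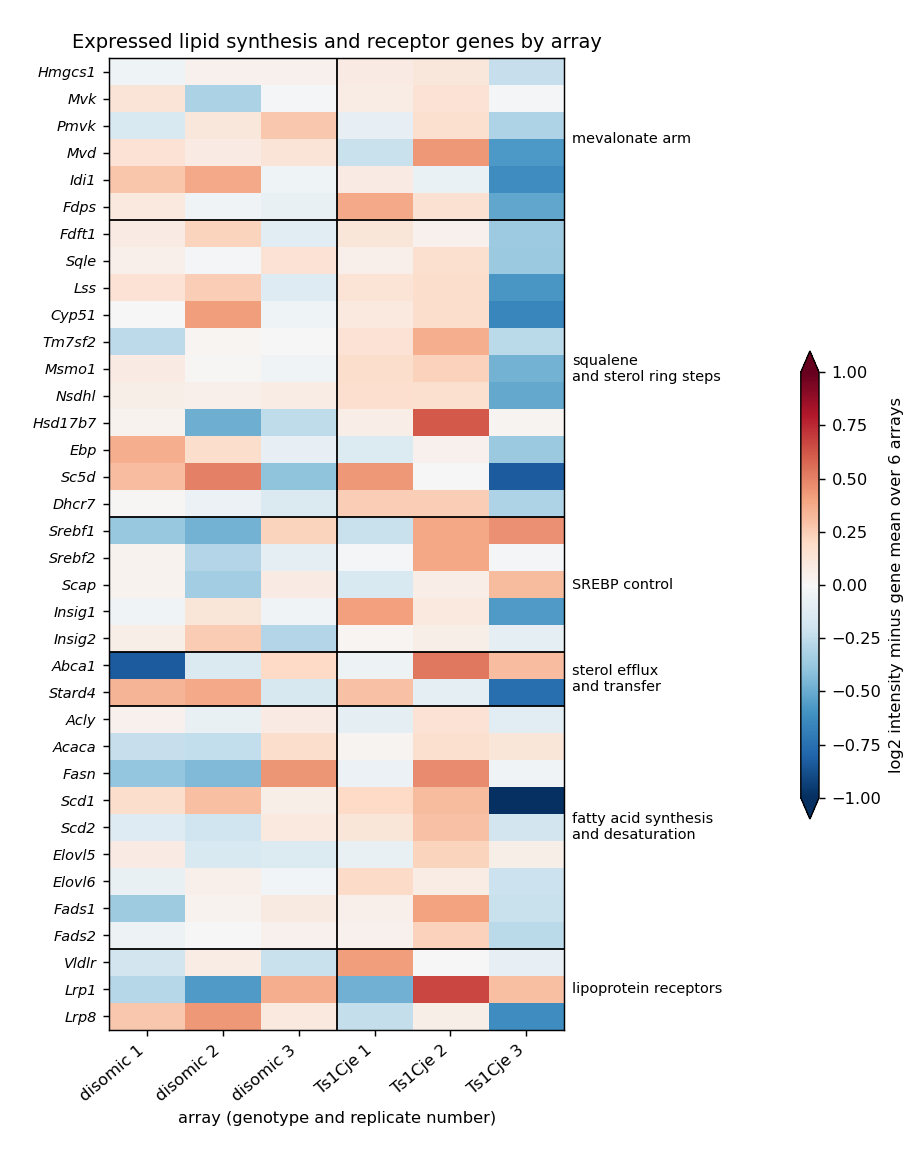
Each cell shows the log2 intensity of an expressed gene on an array minus that gene's mean over the 6 arrays, with genes in rows by role and arrays in columns. The colour scale ends at -1 and 1, which Scd1 on Ts1Cje 3 exceeds, and the column of Ts1Cje 3 is below the gene mean for 16 of the 17 sterol genes.

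Without Ts1Cje 3, the median M turned from below to above 0 in both arms of sterol synthesis, to 0.04 in the mevalonate arm and 0.08 in the ring steps, and was 0.14 over all 36 genes. Then 30 of the 36 genes and 13 of the 17 sterol genes had M above 0, against 52% of all expressed genes. Ts1Cje 3 was seen to be lowest for most of these genes, so leaving it out raises their M and these counts by construction, and the shares of all expressed genes are no test. In that reduced set 10 lipid genes had both remaining Ts1Cje arrays above every disomic array (9.87% of expressed genes) and 1 had both below (8.2%). The 10 were Hmgcs1, Fdps, Tm7sf2, Msmo1, Nsdhl, Hsd17b7, Dhcr7, Scd2, Elovl6 and Fads2, of which 7 are sterol genes. With a moderated t above 4 there were 3 (1.56% of expressed genes), namely Dhcr7 (M of 0.31), Msmo1, a sterol methyl oxidase (0.19), and Nsdhl (0.10). The limma adjusted p of each was 1.

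The proliferation genes did not share this pattern. Averaged over the 16 of 18 listed proliferation genes that were expressed, the deviation from the mean of the 6 arrays was 0.42, 0.20 and 0.36 on the disomic arrays and 0.05, -0.56 and -0.47 on the Ts1Cje arrays. Proliferation genes were thus lowest on Ts1Cje 2 and Ts1Cje 3, and their mean on Ts1Cje 1 was also below every disomic array. All 16 had M below 0, with a median of -0.59. At an unadjusted limma p under 0.05, 8 were lower (2.87% of all expressed genes), and 2 had a moderated t below -4 (0.693%). For 10, every Ts1Cje array was below every disomic array (5.16%). The list was chosen with earlier results of these data known, so these counts are no test. Over the 17 sterol genes the deviation was 0.08, 0.08 and -0.04 on the disomic arrays and 0.11, 0.19 and -0.41 on the Ts1Cje arrays, highest on Ts1Cje 2 and lowest on Ts1Cje 3. The actin 3′ minus 5′ difference, at 2.26, was also highest on Ts1Cje 3, while that of Gapdh was 2.29 there, within the range of 2.09 to 2.44 of the other arrays. Among cell markers, the mean deviation of the 10 expressed stem cell and astrocyte genes ran from -0.17 to 0.13 on the other arrays and was 0.16, the highest, on Ts1Cje 3. That of the 6 expressed oligodendrocyte lineage genes was -0.27 there and lower on Ts1Cje 1, at -0.39. The part of RNA quality and of these markers in the low sterol values was not tested.

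**Figure D3:**
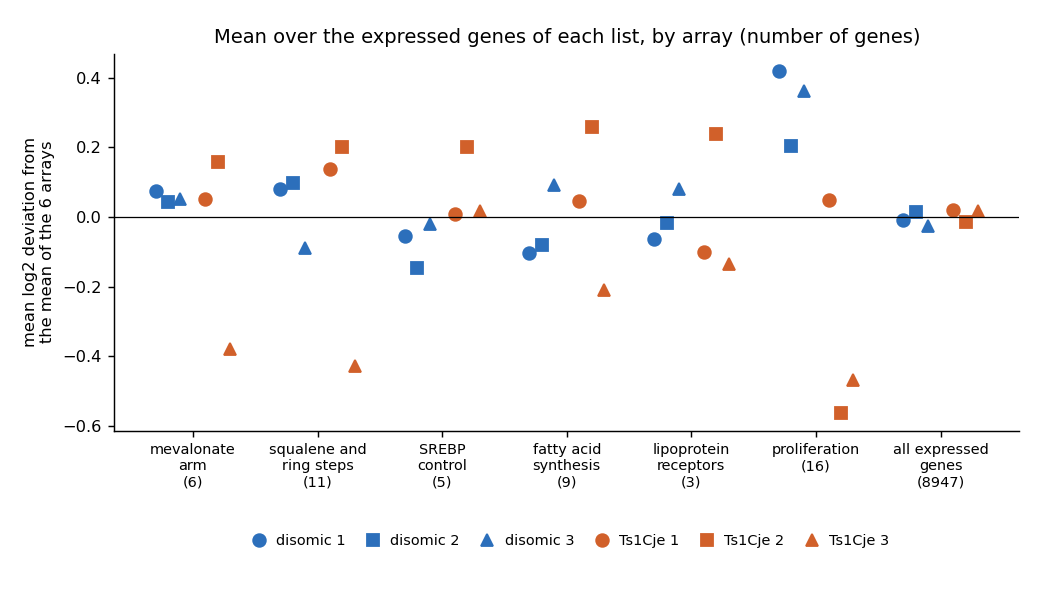
The mean log2 deviation from the mean of the 6 arrays is plotted for the expressed genes of each list, with 1 point per array and the number of genes under each list. The sterol lists are lowest on Ts1Cje 3 and highest on Ts1Cje 2, whereas proliferation genes are low on both of these arrays.

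The promoters are shown for the sequence features that the genes share. No binding was measured, and whether these features bear on the values of any array was not tested. The 250 bases before the annotated start were taken from RefSeq (GRCm38.p6), which gave a promoter for 30 of the 38 genes and for 27025 genes in all. Of 15 sterol synthesis promoters, 13 (86.7%) held CCAAT on either strand, the box bound by NF-Y, a partner of the SREBP factors, against 34.5% of all promoters. Among all 30 lipid gene promoters the share was 63.3%, and it was 80% (4 of 5) for the SREBP control genes. The sterol regulatory element, searched as TCACNCCAC on both strands, was in 1 of the 30, that of Hmgcs1, and in 1.04% of all promoters. The E-box CACGTG, also a target of SREBP1, was in 5 of the 30 (16.7%) and in 6.05% of all. In the sequences printed here no matches overlap. A match is a match of letters and no shown binding site. A promoter without a match may still hold a variant of the element, since only these letters were searched.

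The promoters of Hmgcs1 (chr13:119690101-119690350, plus strand), Idi1 (chr13:8885356-8885605, plus), Cyp51 (chr5:4104698-4104947, minus) and Insig1 (chr5:28071162-28071411, plus) belong to genes that were lowest on Ts1Cje 3. That of Hsd17b7 (chr1:169969206-169969455, minus) belongs to a sterol gene that was not. Each is written 5′ to 3′ along its gene, and capitals mark the 3 motifs, where a CCAAT box on the opposite strand reads as its reverse complement.
Hmgcs1: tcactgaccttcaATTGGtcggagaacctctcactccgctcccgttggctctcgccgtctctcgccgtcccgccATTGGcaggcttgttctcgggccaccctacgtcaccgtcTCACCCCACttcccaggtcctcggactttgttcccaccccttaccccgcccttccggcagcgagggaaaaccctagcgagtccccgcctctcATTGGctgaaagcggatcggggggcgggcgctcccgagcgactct
Idi1: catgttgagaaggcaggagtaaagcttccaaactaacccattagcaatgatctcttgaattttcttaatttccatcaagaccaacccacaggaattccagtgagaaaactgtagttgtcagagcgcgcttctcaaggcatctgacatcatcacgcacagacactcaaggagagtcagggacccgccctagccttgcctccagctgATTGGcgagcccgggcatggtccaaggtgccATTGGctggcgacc
Cyp51: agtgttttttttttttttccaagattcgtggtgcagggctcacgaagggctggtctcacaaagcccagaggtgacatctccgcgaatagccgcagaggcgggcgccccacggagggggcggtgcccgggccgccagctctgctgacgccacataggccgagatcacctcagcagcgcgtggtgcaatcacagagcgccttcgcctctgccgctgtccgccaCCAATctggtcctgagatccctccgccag
Insig1: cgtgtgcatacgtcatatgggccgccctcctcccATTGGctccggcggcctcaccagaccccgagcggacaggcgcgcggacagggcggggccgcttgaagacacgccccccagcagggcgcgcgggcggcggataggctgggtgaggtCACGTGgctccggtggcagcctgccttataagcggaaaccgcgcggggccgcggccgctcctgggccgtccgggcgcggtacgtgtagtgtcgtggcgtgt
Hsd17b7: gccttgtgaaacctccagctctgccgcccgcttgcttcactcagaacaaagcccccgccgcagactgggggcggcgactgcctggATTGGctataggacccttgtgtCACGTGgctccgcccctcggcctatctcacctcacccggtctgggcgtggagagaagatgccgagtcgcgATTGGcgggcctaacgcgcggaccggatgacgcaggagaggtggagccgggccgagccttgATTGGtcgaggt

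Hsd17b7 and Insig1 both hold CACGTG and CCAAT in these windows. Insig1 was at its lowest on Ts1Cje 3 and Hsd17b7 was not. Idi1 and Cyp51, both lowest on Ts1Cje 3, hold CCAAT and no match to the letters searched for the other motifs. Whether motifs and arrays are linked was not tested.

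The genes that sense sterol had a median M of 0.15 over 5 expressed genes, 3 of them above 0. Srebf1, whose product SREBP1 favours fatty acid genes, gave 8.49, 8.40 and 9.09 on the disomic arrays and 8.65, 9.25 and 9.33 on the Ts1Cje arrays, with an M of 0.42 ± 0.29. Srebf2, whose product favours sterol genes, gave 8.09, 7.76 and 7.97 against 8.04, 8.45 and 8.04, with an M of 0.23 ± 0.16 and of -0.06 on its second probe set. The groups overlapped for both factors. Scap, the escort of the SREBPs, had an M of 0.15.

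Insig1, a retention factor and itself a target of the SREBPs, followed the sterol enzymes rather than Scap and Srebf1 on Ts1Cje 3. It gave 10.39, 10.55 and 10.39 on the disomic arrays and 10.84, 10.53 and 9.86 on the Ts1Cje arrays. On Ts1Cje 3 it lay -0.68 from the mean of the other arrays, whereas Srebf1 lay 0.55 and Scap 0.38 above theirs. Insig2, the related retention factor, had an M of -0.01. Levels of mRNA do not report cleavage of the SREBP proteins, which was not measured.

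Of the genes that move sterol, Abca1, the exporter that loads cholesterol onto apolipoproteins, had the largest M among all 36 genes, 0.52 ± 0.33. It gave 9.04, 9.73 and 10.07 on the disomic arrays and 9.82, 10.40 and 10.18 on the Ts1Cje arrays. The spread came mainly from disomic 1, and the groups overlapped. Stard4, a soluble sterol carrier, gave 10.10, 10.14 and 9.60 against 10.06, 9.66 and 9.01, with an M of -0.37 ± 0.34. All 3 of its expressed probe sets were below 0 and lowest on Ts1Cje 3.

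Fatty acid synthesis and desaturation genes had a median M of 0.14, with 7 of 9 above 0 where 53.9% of all expressed genes were. Acaca, acetyl-CoA carboxylase and the committed step, gave 7.63, 7.61 and 8.04 on the disomic arrays and 7.89, 8.02 and 7.98 on the Ts1Cje arrays, with an M of 0.21 ± 0.14. With all arrays its moderated t was 1.48. Disomic 3 alone overlapped the Ts1Cje values. Without disomic 3, M was 0.34, with a moderated t of 6.92 and a limma adjusted p of 0.968. Leaving out the only array that overlaps separates the groups by construction, so these values are no test of a difference between genotypes. Elovl5, an elongase of polyunsaturated fatty acids, gave 13.28, 13.05 and 13.06 against 13.13, 13.42 and 13.26, with an M of 0.14 ± 0.11 and of -0.10 on its second probe set. Fasn, fatty acid synthase, and Acly, which supplies its acetyl-CoA, had M values of 0.26 and -0.04.

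The stearoyl-CoA desaturases Scd1 and Scd2 make monounsaturated fatty acids. Scd1 gave 12.52, 12.65 and 12.40 on the disomic arrays and 12.54, 12.66 and 11.29 on the Ts1Cje arrays. It lay -1.26 from the mean of the other arrays on Ts1Cje 3, the lowest of the 36 genes by their brightest probe sets, while Ts1Cje 1 and 2 lay within or next to the disomic range. Scd2, the form most used in brain, gave 14.17, 14.10 and 14.40 against 14.42, 14.59 and 14.12 on its brightest probe set, which was within the disomic range on Ts1Cje 3. A dimmer Scd2 probe set gave 9.67, 9.97 and 10.51 against 10.76, 10.49 and 8.87, which is -1.40 from the mean of the others on Ts1Cje 3. The value of Scd2 on this array thus depends on the probe set. The elongase Elovl6 and the polyunsaturated desaturases Fads1 and Fads2 had M values of 0.03, 0.15 and 0.01.

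The lipoprotein receptors held the only probe set of the 68 expressed ones that passed a moderated t of 4, where 0.965% of all expressed probe sets did so upwards. It reports Vldlr, the receptor for very low density lipoprotein and reelin, and gave 4.99, 5.57 and 5.37 on the disomic arrays and 6.50, 6.23 and 5.99 on the Ts1Cje arrays. Its genotypes did not overlap, Ts1Cje being higher, as for 5.53% of all expressed probe sets. M was 0.93 ± 0.22, the moderated t 4.31 and the limma adjusted p 1. The other 3 expressed Vldlr probe sets did not show this, with M values of 0.22, -0.01 and 0.18. The brightest, at an A of 9.69, gave 9.50, 9.76 and 9.47 against 10.10, 9.68 and 9.60, and the groups overlapped. That brightest set is of the _x_at kind, whose probes may also bind related transcripts. The probe set past the threshold was the dimmest of the 4 expressed ones, with an A of 5.78, and the array had 6 for Vldlr in all.

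Lrp8, the other reelin receptor, ran the other way. It gave 7.92, 8.09 and 7.75 on the disomic arrays and 7.41, 7.71 and 7.03 on the Ts1Cje arrays. Every Ts1Cje array was below every disomic array, by a margin of 0.04 between Ts1Cje 2 and disomic 3. M was -0.54 ± 0.21, with a moderated t of -2.53 and an unadjusted limma p of 0.060. Without Ts1Cje 3, M was -0.36. The second Lrp8 probe set had an M of -0.14. Lrp1, a large endocytic receptor for many ligands, had an M of 0.32 ± 0.42, with 8.56, 8.28 and 9.21 against 8.36, 9.51 and 9.14, and its genotypes overlapped.

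**Figure D4:**
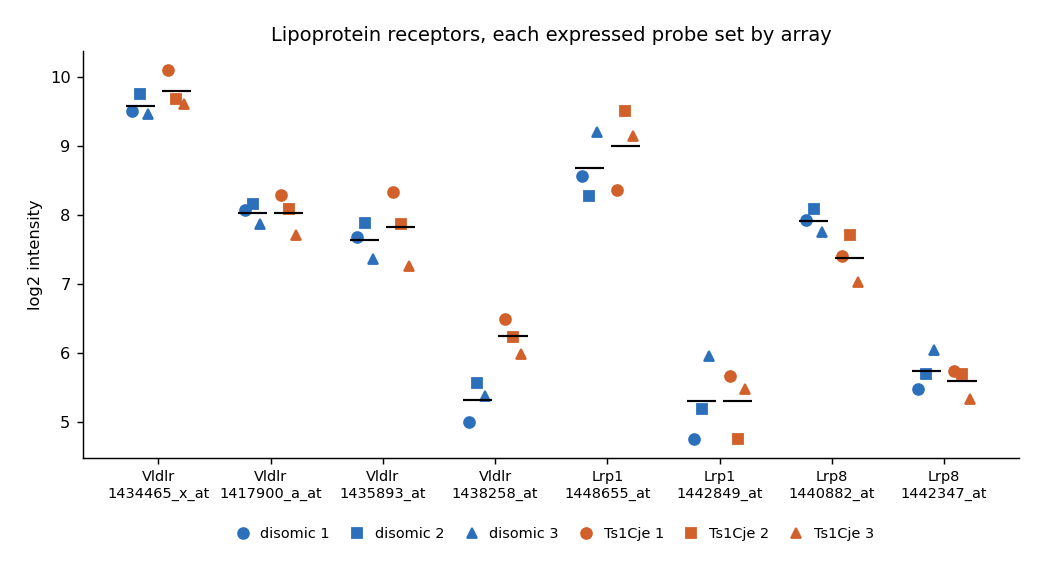
Log2 intensity on each array is plotted for the expressed probe sets of Vldlr, Lrp8 and Lrp1, with disomic and Ts1Cje arrays side by side. Of the Vldlr probe sets the dimmest separates the genotypes, and the brightest Lrp8 probe set is lower on every Ts1Cje array.

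Other genes of the same pathways came from lists of 83 genes, of which 55 were expressed, with a median M of 0.03. Counted by a moderated t of 4, 0 passed in either direction. At an unadjusted limma p under 0.05, 4 were higher in Ts1Cje (3.73% of all expressed genes) and 0 lower (2.87%), and 3 of the 4 were among the 7 expressed lipoprotein receptor and reelin genes. The smallest limma adjusted p was 1. Every Ts1Cje array exceeded every disomic array for 4 of the 55 and lay below for 1, against 6.12% and 5.16% of all expressed genes. The same 4 genes make up both counts, namely Lrp10 (M of 0.37), Sorl1 (0.34) and Lrpap1 (0.35), which are 2 receptors and a chaperone of the lipoprotein receptor family, and Lipa (0.35), the lysosomal acid lipase. The 1 was Dgat1 (-0.17), an enzyme of triglyceride synthesis. The other expressed probe sets of Lrpap1 (M of 0.24, 0.49 and 0.19) and Sorl1 (0.34) had overlapping genotypes. Their unadjusted limma p was above 0.05. Lrp10 gave 8.63, 8.57 and 8.60 on the disomic arrays and 8.81, 8.93 and 9.18 on the Ts1Cje arrays. In this gene Ts1Cje 3 was the highest array.

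The 2 genes with the largest moderated t of each remaining list also missed the threshold. They were Ggps1 (0.26) and Lbr (-0.46) of isoprenoid and sterol synthesis, Rxrb (0.33) and Rxra (0.20), partners of the sterol-sensing LXR receptors, Abcg4 (0.33), a sterol exporter beside Lipa, and Acss2 (0.65) and Gpam (0.28), which supply acetyl-CoA and start glycerolipid synthesis. Acss2 gave 9.88, 10.47 and 9.98 on the disomic arrays and 11.04, 10.88 and 10.35 on the Ts1Cje arrays, and the groups overlapped between disomic 2 and Ts1Cje 3.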

How the data were processed

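The 6 arrays are Affymetrix whole-genome expression arrays, hybridised with RNA after 2 cycles of labelling. The values are log2 intensities as deposited by the authors, from GCRMA (background correction by probe base composition, normalisation and summary per probe set); its version is not given in the sources used here. An array has no read depth, and the number of arrays, 3 per genotype, limits the precision.

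The genotypes were compared in limma 3.58.1 (R 4.3.3) without covariates, over 45037 probe sets and leaving out 64 controls, with moderated t, two-sided p-values and Benjamini-Hochberg adjustment over all probe sets. The prior had 0.336 degrees of freedom, so that each probe set was judged almost by its own spread. A moderated t past 4 and A above 5 follow the methods of the study. The labels call the samples biological replicates, the controls littermates and the design 3 pairs, but no source says that equal replicate numbers mark a pair. With 3 arrays per genotype the smallest exact permutation p is 0.1, so no such test was run on single values.

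Gene names come from the platform annotation of the 34945 probe sets that carry a single symbol. The genes given array by array were those past a t of 4, with an unadjusted p under 0.05 or without overlap on any expressed probe set, and the 2 with the largest t of each role. Cyp51, Nsdhl, Dhcr7, Insig1, Scd1, Scd2 and Lrp1, and Lrp10 and Acss2, were shown after their values were seen. Of other pathway genes, the 2 with the largest t per list and those without overlap were named. Members and lists were chosen with earlier results of these data known.

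Promoter sequences came from RefSeq and were searched with Python 3.11.15 and pandas 2.3.3. Figures were drawn with matplotlib 3.10.9. The fit was tested on simulated data.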

Additional observations from a re-analysis of the deposited data

How the results depend on the processing

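Of 540 values of M (36 genes under 15 alternatives), 534 stayed short of a moderated t of 4, 4 passed it in the same direction and 2 passed it with the opposite sign, namely Msmo1 (0.19) and Nsdhl (0.10) without Ts1Cje replicate 3. At any t, 31 of the 540 had the opposite sign, 12 of them without Ts1Cje replicate 3. Over the arrays left out in turn, Msmo1 ran from -0.17 to 0.19 and Nsdhl from -0.24 to 0.10. The values that newly passed were Dhcr7 without Ts1Cje replicate 3 (0.31), Acaca without disomic replicate 3 (0.34), Mvd without Ts1Cje replicate 2 (-0.51) and Lrp8 with the replicate block (-0.54).

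Leaving out 1 array at a time, the count of lipid genes with a moderated t above 4 ran from 0 to 3 and below -4 from 0 to 1. The count of genes whose genotypes did not overlap ran from 0 to 10 with Ts1Cje higher and from 1 to 5 with Ts1Cje lower, where smaller groups overlap less often by construction. The count higher was 4, 1 and 4 without disomic 1, 2 and 3. It was 2, 0 and 10 without Ts1Cje 1, 2 and 3. The count lower reached 5 without disomic 3, 4 without Ts1Cje 2 and 2 without Ts1Cje 1. A share of all expressed genes was taken only without Ts1Cje 3, at 9.87% higher and 8.2% lower. Counts for the other left-out arrays have no such share, so they cannot be read as high or low for these genes. Probe sets past an adjusted p of 0.05 in the whole table ran from 0 to 6, the highest without disomic 1. The median M of the SREBP control genes ran from 0.096 to 0.27, the highest without Ts1Cje 1.

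With the replicate block, 1 lipid gene (Lrp8, t of -5.85) had a moderated t below -4 and 0 probe sets passed an adjusted p of 0.05. No source ties equal numbers to a pair. Arrays with the same number had correlations of their deviations of -0.17, -0.03 and 0.13. So few values cannot decide whether the numbers mark pairs. Averaging the expressed probe sets of each gene put 1 gene (Hsd17b7) entirely above and 0 entirely below. No share of all genes was taken under this averaging. By the brightest probe set, 6.12% of all expressed genes were entirely above and 5.16% entirely below. Cyclic loess, array weights, an intensity trend, a robust prior and other levels of A moved none of the medians beyond the spread between arrays. Counts under these settings were equal or close to those of the main fit, with no spread computed for them. The causes of the changes were not tested. Signal limits Abcg1, which stood near the lowest value, and probe sets with A near 5.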
